A study of Homo sapiens with 16 samples.

Results

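H89 was given to human fibroblasts before the phorbol ester TPA, and the RNA of those cells was set against that of cells given TPA alone. The comparison rests on 4 libraries of the 16 deposited, namely TPA 1 and TPA 2 (TPA alone) and TPA+H89 1 and TPA+H89 2. They were chosen by their treatment labels. The running sample names put TPA 1 beside TPA+H89 1 (pair 1) and TPA 2 beside TPA+H89 2 (pair 2). No label says that a pair shared a culture or a day, so both pairs are given throughout.

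All cells were CCD-1070Sk, a line of human skin fibroblasts, and all were serum starved. The TPA cells had 100 nM TPA for 1 h. The TPA+H89 cells had 10 µM H89 for 30 min and then 100 nM TPA for 1 h, and the labels do not settle whether H89 stayed on during that hour. The other groups used here were 3 distinct controls (untreated, 0 h), 3 libraries of H89 alone (labelled 0 h), 3 of EGF (30 ng/ml, 1 h) and 2 of EGF+H89 (10 µM H89 for 30 min, then EGF for 1 h). The deposited columns of control 3 and control 4 held the same count at 100% of genes and were used once, which left 15 libraries. Nothing in the labels says that replicates came from separate cultures, so p-values measure the spread between these libraries only.

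TPA mimics diacylglycerol and switches on protein kinase C, which activates the RAS, RAF, MEK and ERK cascade. ERK and p38 in turn activate the kinases MSK1 and MSK2, which phosphorylate histone H3 and the transcription factors CREB and ATF1 at immediate-early genes, the genes transcribed within minutes of a stimulus without new protein synthesis. H89 is a kinase inhibitor first known for protein kinase A that also inhibits MSK1, and it acts on several other kinases.

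Total counts were 33522696 in TPA 1, 130075914 in TPA 2, 7527026 in TPA+H89 1 and 70470733 in TPA+H89 2. Libraries of pair 1 held 11.7% and 12.0% of their counts in ribosomal RNA entries and those of pair 2 held none, so each pair is of 1 library type. TPA+H89 1 was the shallowest of the 15 libraries, had 15748 genes with a count against 18163 to 19723 in the other members, and had 13.4% of its counts on the single RNA RMRP. TPA 2 was the deepest and stood apart by base composition. Over 1927 genes with transcripts of at least 60% G and C, its median log2 deviation from each gene's mean over the 15 libraries was 1.16, while the other libraries lay between -0.39 and 0.25. Summed keratinocyte, endothelial, melanocyte and leukocyte markers each came to between 9.57 and 66.1 CPM (counts scaled by library size) in the 4 libraries, against 38329 to 67061 CPM for 20 fibroblast genes, and 3 of 7 keratinocyte, 2 of 7 endothelial, 1 of 7 melanocyte and 2 of 7 leukocyte markers had no count in any of the 4. Smooth muscle and pericyte markers, several of which fibroblasts share, came to 152 to 504 CPM, highest in TPA 2.

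Both TPA libraries exceeded every control and H89 library in 958 tested genes. In 400 of these (41.8%) both TPA+H89 libraries lay below both TPA libraries, where 11.1% of all tested genes did. Choosing genes for high TPA values raises that share, so it is not a measure of H89 alone. Among named genes, a set picked partly from these values stood higher with TPA than in every control and was lower with H89 in each pair. It stood 3.42-fold to 5.90-fold lower with H89 than with TPA alone. Other genes met the same description, among them JUNB (5.29-fold) and SOCS3 (4.28-fold), whose groups overlapped. The set held the phosphatases DUSP1 and DUSP5, the antiproliferative BTG2, the orphan nuclear receptor NR4A3, the transcription factor EGR3 and the apoptosis-related PHLDA1. The size of these differences depended on single libraries, and with 1 library left out the log2 fold change ran from -3.28 to -1.33 for DUSP1, from -3.35 to -0.94 for EGR3 and from -2.62 to -1.34 for BTG2. The values nearest 0 came without TPA 2 for DUSP1 and EGR3 and without TPA+H89 1 for BTG2, and those farthest from 0 came without TPA+H89 2. In FOS, EGR1, EGR2 and KLF10, which belong to the same early class, the groups overlapped and the pairs differed in sign. Genes of the ribosome and of the respiratory chain had positive medians in both pairs. Small nucleolar RNAs did too, but without TPA+H89 1 their median was -0.07.

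No gene passed edgeR's quasi-likelihood test over the 15 libraries at a Benjamini-Hochberg adjusted p under 0.05 (0 of 18575 lower and 0 higher, the lowest adjusted p being 0.713). At an unadjusted p under 0.05 there were 825 lower genes (4.44%) and 475 higher genes (2.56%). DESeq2 called 7 lower and 2 higher. When only the 4 libraries were fitted, with a term for library type that here is also the term for the pair, 35 of 15823 genes were called lower (0.221%) and 132 higher (0.834%). That fit has 1 residual degree of freedom per gene, so nearly all of its spread is borrowed from other genes. Its adjusted p-values, called pair-fit values below, are printed with that limit. Leaving out TPA 1 left 719 genes called by the test over all libraries, 548 lower and 171 higher, and leaving out any other member left 0.

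The feedback phosphatases come first. DUSP1 removes phosphate from p38, JNK and ERK in the nucleus. Its level was 772 CPM in TPA 1 and 2839 CPM in TPA 2, against 186 CPM in TPA+H89 1 and 426 CPM in TPA+H89 2. The groups did not overlap, and every value lay above the 3 controls (56.6 to 70.5 CPM) and the 3 H89 libraries (50.6 to 75.0 CPM). The log2 fold change of DUSP1 was -2.56 ± 0.54 (SE), or 5.90-fold lower, with -2.05 in pair 1 and -2.74 in pair 2 (pair-fit adjusted p = 0.000435). DUSP5, a nuclear phosphatase for ERK, stood at 160 and 234 CPM with TPA and at 39.2 and 75.4 CPM with TPA and H89. Both inhibited libraries were below both TPA libraries and above every control (11.5 to 19.5 CPM). The log2 fold change of DUSP5 was -1.78 ± 0.35, with -2.03 and -1.63 in the pairs (pair-fit adjusted p = 0.0133).

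Among transcription regulators, NR4A3 stood at 62.3 and 77.0 CPM with TPA and at 15.7 and 21.2 CPM with TPA and H89, against 1.43 to 3.93 CPM in controls. TPA+H89 therefore held it between the TPA and the control levels. Its log2 fold change was -1.91 ± 0.50, with -1.99 and -1.86 in the pairs (pair-fit adjusted p = 0.00645). BTG2, which restrains proliferation and speeds the decay of messenger RNA, stood at 92.2 and 131 CPM with TPA and at 18.2 and 42.1 CPM with both agents. Here the inhibited libraries overlapped the 38.0 to 45.0 CPM of controls and the 20.0 to 34.2 CPM of H89 alone. The log2 fold change of BTG2 was -1.88 ± 0.39, with -2.34 and -1.64 in the pairs (pair-fit adjusted p = 0.0045). PHLDA1, picked out after its values were seen, stood at 221 and 318 CPM with TPA and at 52.7 and 78.9 CPM with both agents. Those inhibited levels lay inside the 32.5 to 90.3 CPM of the controls. Its pair differences were -2.07 and -2.01 (pair-fit adjusted p = 0.00319). EGR3, a zinc finger factor, stood at 236 and 885 CPM with TPA and at 55.2 and 189 CPM with both agents, with pair differences of -2.09 and -2.23 (pair-fit adjusted p = 0.00174). Its controls spread from 1.14 to 13.8 CPM.

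The stretches before the start sites of DUSP1, NR4A3 and BTG2, and of FOS and EGR1, whose pairs differed in sign, are shown because these genes differ in their values under H89 while MSK and protein kinase A are known to act through CREB. CREB binds the cAMP response element (CRE). RefSeq promoter windows on GRCh38.p14 were searched on both strands for the whole element TGACGTCA, its half-site TGACG (every whole element holds 2 half-sites), the AP-1 site TGANTCA and the CArG box, which binds SRF. Each line gives the 250 bases before the start, 5′ to 3′ on the gene's strand, with matches in capitals. They lie at chr5:172771196-172771445 (minus strand) for DUSP1, chr9:99821635-99821884 (plus) for NR4A3, chr1:203305269-203305518 (plus) for BTG2, chr14:75278578-75278827 (plus) for FOS and chr5:138465229-138465478 (plus) for EGR1.
DUSP1: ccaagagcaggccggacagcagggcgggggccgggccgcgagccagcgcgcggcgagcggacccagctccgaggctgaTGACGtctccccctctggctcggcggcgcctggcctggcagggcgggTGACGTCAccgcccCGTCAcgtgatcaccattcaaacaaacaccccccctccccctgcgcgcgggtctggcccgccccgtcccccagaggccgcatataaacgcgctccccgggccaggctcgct
NR4A3: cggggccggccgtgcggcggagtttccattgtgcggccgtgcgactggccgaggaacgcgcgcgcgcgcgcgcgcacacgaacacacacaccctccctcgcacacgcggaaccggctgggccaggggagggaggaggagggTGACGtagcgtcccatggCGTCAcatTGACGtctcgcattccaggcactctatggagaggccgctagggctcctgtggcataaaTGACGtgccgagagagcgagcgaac
BTG2: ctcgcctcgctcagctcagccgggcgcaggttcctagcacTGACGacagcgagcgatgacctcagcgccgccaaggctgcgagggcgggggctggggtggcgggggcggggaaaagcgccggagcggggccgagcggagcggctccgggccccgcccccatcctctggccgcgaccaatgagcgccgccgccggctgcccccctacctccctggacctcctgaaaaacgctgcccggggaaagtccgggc
FOS: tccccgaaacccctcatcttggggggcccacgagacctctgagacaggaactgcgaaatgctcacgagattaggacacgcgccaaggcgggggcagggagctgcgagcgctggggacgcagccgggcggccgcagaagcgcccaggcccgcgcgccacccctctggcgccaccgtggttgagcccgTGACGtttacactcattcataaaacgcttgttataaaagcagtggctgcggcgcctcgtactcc
EGR1: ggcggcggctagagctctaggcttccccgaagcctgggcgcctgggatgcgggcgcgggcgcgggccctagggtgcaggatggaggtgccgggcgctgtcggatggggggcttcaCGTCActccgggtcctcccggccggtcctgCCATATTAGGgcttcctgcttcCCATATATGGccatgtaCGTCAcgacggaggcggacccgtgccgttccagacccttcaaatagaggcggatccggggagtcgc

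DUSP1 had the whole element, 125 to 118 bases before its start, and half-sites beside it. NR4A3 held 4 half-sites and BTG2 held 1. FOS held 1 half-site, 64 to 60 bases before its start, and EGR1 held 2 half-sites and 2 CArG boxes. A half-site was thus present in all 5 windows, in those of the 3 genes that stood lower without overlap and in those of the 2 whose groups overlapped. Over 300-base windows, which add the first 50 bases of the transcript, a half-site occurred in 31.7% of the 12959 tested genes with a window and in 14 of 22 immediate-early factors (63.6%). It occurred in 40 of 158 genes (25.3%) that were at least 2-fold lower in both pairs with a mean of at least 1 CPM under TPA. The whole element occurred in 2.86% of all windows and in 3.16% of those 158, the AP-1 site in 5.36% and 2.53%, and the CArG box in 1.12% and 1.27%.

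Of 27 immediate-early transcription factors, 24 had a negative log2 fold change, and the median was -1.19 against -0.02 over all tested genes. The median difference was -0.51 in pair 1 and -1.24 in pair 2. None passed the adjusted test, and 12 had an unadjusted p under 0.05, all lower, where 4.44% of all genes were. In the pair fit 3 were called lower (EGR3, JUNB and NR4A3), against 0.221% of all genes. In 10 of the 27 both inhibited libraries lay below both TPA libraries, where the same held for 11.1% of all tested genes. At least 2-fold lower in both pairs were 6 of them, and 3.26% of all genes met that rule. Without TPA 2 the median of the 27 was -0.25.

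Other factors of the list were lower in both pairs by smaller steps. MYC stood at 104 and 147 CPM with TPA and at 51.2 and 68.7 CPM with both agents, with pair differences of -1.03 and -1.10. ATF3, a stress-induced factor, stood at 123 and 198 CPM and then 41.5 and 104 CPM, with -1.56 and -0.93. In both genes the groups did not overlap. NR4A1, a relative of NR4A3, stood at 201 and 650 CPM with TPA and at 66.3 and 249 CPM with both agents. TPA+H89 2 exceeded TPA 1 there, so the groups overlapped while each pair was lower, by -1.60 and -1.38. NR4A2, the least abundant of the 3 receptors, stood at 7.71 and 4.01 CPM and then 2.00 and 1.68 CPM, with -1.92 and -1.23.

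**Figure D1:**
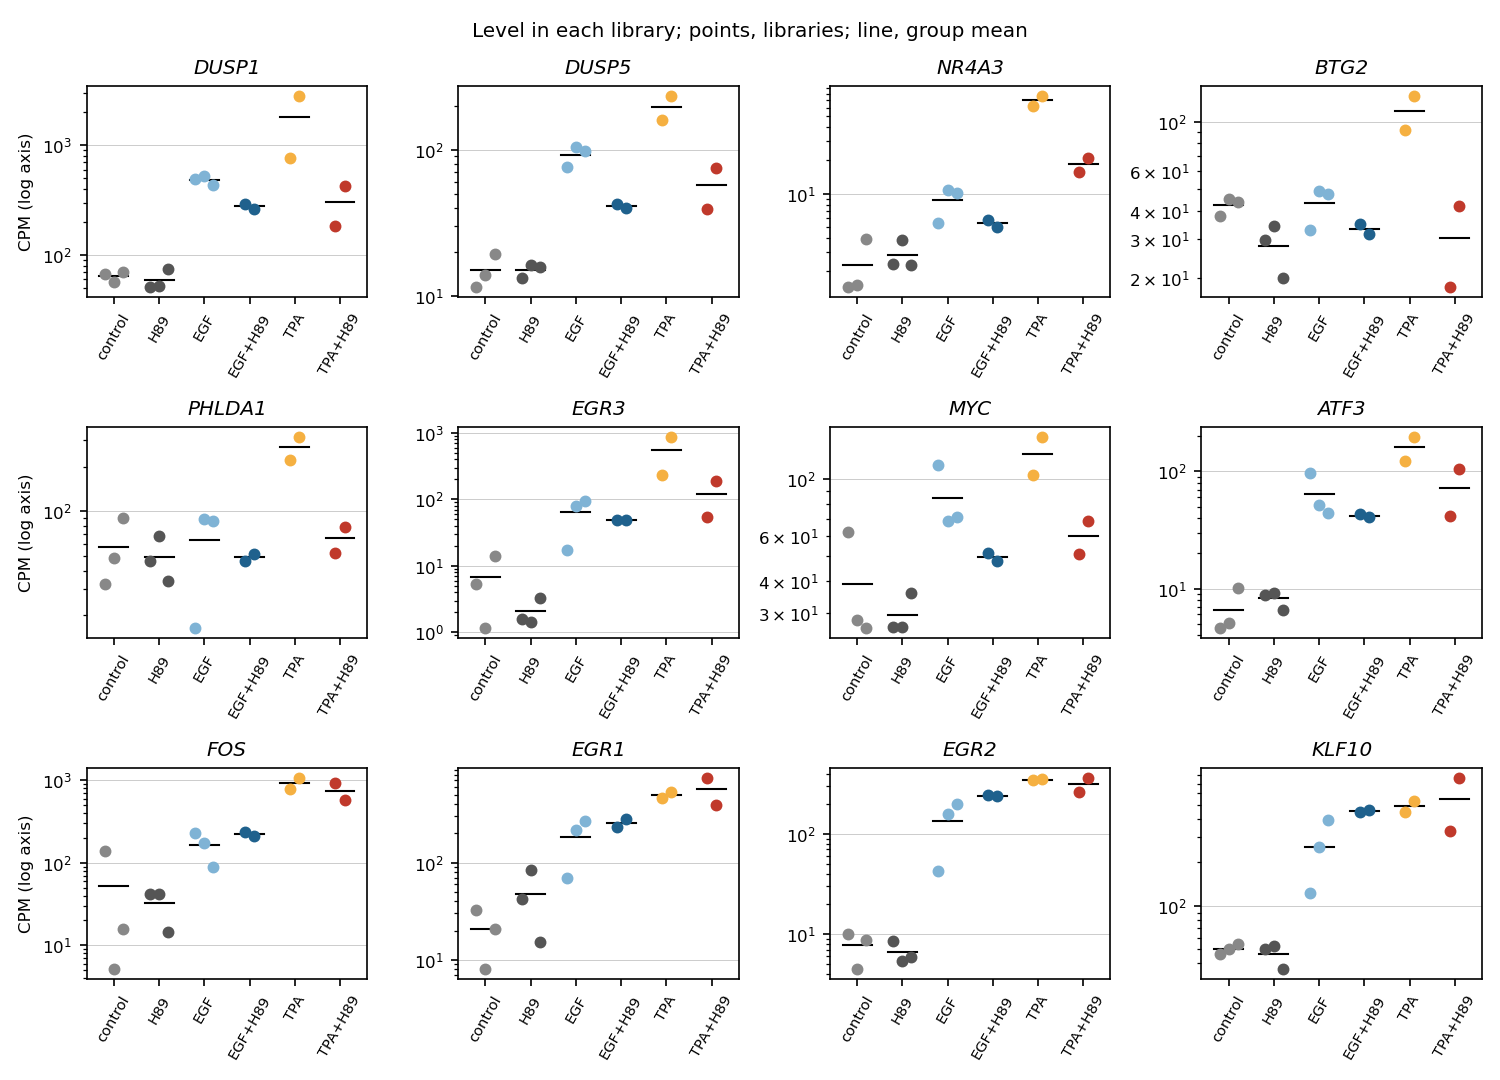
Level of 12 early genes in each of the 15 libraries, in TMM-scaled CPM on log axes that differ between panels, by treatment group (points, libraries; line, group mean). In the first 8 panels both TPA+H89 libraries lie below both TPA libraries, and for FOS, EGR1, EGR2 and KLF10 the 2 groups overlap.

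In a second set of factors the libraries with and without H89 overlapped. FOS, the AP-1 subunit, stood at 785 and 1081 CPM with TPA and at 920 and 582 CPM with both agents, and its pair differences were 0.23 and -0.89. EGR1 stood at 465 and 533 CPM and then 747 and 391 CPM, with 0.68 and -0.45. EGR2 stood at 347 and 350 CPM and then 265 and 365 CPM, with -0.39 and 0.06. In these 3 genes the groups overlapped and the pairs differed in sign. KLF10 and BHLHE40, a pair of repressors, overlapped in the same way, with pair differences of -0.43 and 0.54 for KLF10 and of -0.54 and 0.16 for BHLHE40. All 5 stood above every control and H89 library in all 4 libraries. Of the 23 immediate-early factors whose TPA levels both exceeded every control and H89 library, TPA+H89 was below both TPA libraries in 8 (34.8%), and in 6 of those it was still above all controls and H89 libraries. Over all tested genes 958 were above in this way and 400 of them (41.8%) stood lower without overlap. Both shares come from genes chosen for high TPA values, which raises them. The log2 fold changes were -0.31 ± 1.04 for FOS, 0.19 ± 0.77 for EGR1 and -0.14 ± 0.56 for EGR2, and errors of that size do not show that H89 left them unchanged.

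JUN, JUNB, MAFF and IER3 were low with H89 mainly in pair 2. JUN stood at 234 CPM in TPA 1, 915 CPM in TPA 2, 254 CPM in TPA+H89 1 and 144 CPM in TPA+H89 2, so its pair differences were 0.12 and -2.66. JUNB stood at 790 and 8108 CPM with TPA and at 416 and 1266 CPM with both agents, with -0.92 and -2.68. TPA 2 was the high library in both genes. MAFF had pair differences of -0.72 and -2.29, and IER3, an early gene for cell survival, of -0.39 and -2.08. Transcripts of these 4 genes hold 56.7% to 64.9% G and C, and those of DUSP1, DUSP5, BTG2, NR4A3, EGR3 and PHLDA1 hold 44.3% to 55.9%. IER5 (49.8% G and C) and FOSL2 (53.3%) were also lower mainly in pair 2. Their pair differences were -0.33 and -1.80 for IER5 and -0.61 and -1.56 for FOSL2. Why such genes stood lower mainly in pair 2 was not tested.

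Base composition and length moved with the difference between the groups. In pair 2 the median log2 difference went from 0.34 in transcripts under 40% G and C to -1.69 in those over 65%, and in pair 1 it stayed between -0.10 and 0.00 across the same classes. Across the 17426 genes with a known transcript, Spearman's rho with G and C content was 0.02 in pair 1 and -0.43 in pair 2, as a description over genes that share their libraries. Measured against genes of like composition, the median of the 27 early factors was -0.51 in pair 1 and -1.02 in pair 2. With a correction for G and C content the pair fit called 33 genes lower, 16 of them among the 35 called without it. Those 16 included DUSP1, DUSP5, BTG2, NR4A3, EGR3, PHLDA1, CXCL1, CXCL2, NUAK2 and SOCS3. JUNB was not among them, with a corrected log2 fold change of -1.05 (adjusted p = 0.284). Of the 35, 14 were also called lower with both corrections, for composition and for length.

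**Figure D2:**
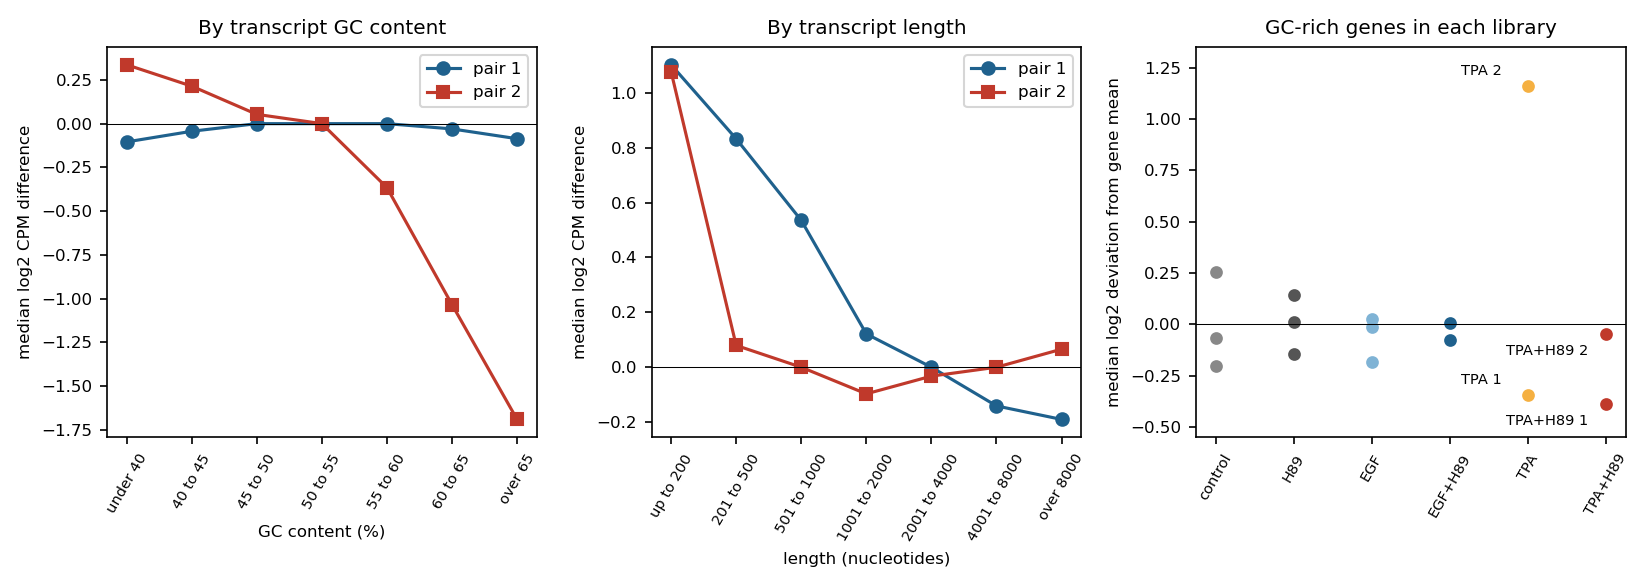
Median log2 difference, TPA+H89 minus TPA, in each pair by transcript G and C content (left) and by transcript length (middle), and the median log2 deviation of genes with at least 60% G and C from their mean in each library (right; 1 point per library). Pair 2 falls to -1.69 in the most GC-rich class, TPA 2 stands at 1.16, and both pairs are above 1 in transcripts up to 200 nucleotides.

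Genes that feed back on ERK and growth factor receptors stood lower in both pairs by similar medians. Of 18, 17 had a negative log2 fold change, with a median of -0.85 over all and of -0.68 and -0.76 in the pairs. None passed the adjusted test, 8 had an unadjusted p under 0.05 and all 8 were lower (4.44% of all genes), 9 were lower without overlap (11.1% of all genes) and 1 was higher without overlap. SPRY2, which dampens RAS signalling, stood at 93.3 and 114 CPM with TPA and at 44.6 and 69.4 CPM with both agents. ERRFI1, an inhibitor of the EGF receptor, stood at 91.7 and 100 CPM and then 39.7 and 66.8 CPM. Their pair differences were -1.06 and -0.72 for SPRY2 and -1.21 and -0.59 for ERRFI1, and in neither did the groups overlap. DUSP6, a cytoplasmic ERK phosphatase, stood at 39.3 and 56.9 CPM with TPA, near its controls (31.5 to 42.6 CPM), and its pair differences were -1.48 and -0.80. SOCS3, which inhibits cytokine receptors, had pair differences of -1.29 and -2.33 (pair-fit adjusted p = 0.0239). DUSP10 was the member with a positive log2 fold change and the one higher without overlap.

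Known targets of cAMP and CREB differed among themselves. Of 14 tested, 12 had a negative log2 fold change, with a median of -0.52 and pair medians of -0.92 and -0.89. An unadjusted p under 0.05 was found for 5, all lower, where 4.44% of all genes were. At least 2-fold lower in both pairs were NR4A1, NR4A2, NR4A3, DUSP1 and PER1, where 3.26% of all genes met that rule. PER1, a clock repressor, had pair differences of -1.30 and -1.97. In NR4A1 and PER1 the groups overlapped. The pair-fit adjusted p of PER1 was 0.0441, and 0.213 with the correction for G and C content (log2 fold change -1.03). CREM, itself a CREB target, stood at 16.5 and 26.6 CPM with TPA and at 17.3 and 14.1 CPM with both agents. The list shares 5 members with the 27 early factors (FOS, FOSB and the 3 NR4A genes) and DUSP1 with the feedback list.

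Secreted factors and NF-kappaB targets had negative medians in both pairs. In 13 of 22 secreted factors and 13 of 18 NF-kappaB targets the TPA levels did not both exceed every control and H89 library. Of 22 early cytokines and growth factors 18 had a negative log2 fold change, with a median of -0.92 and pair medians of -1.10 and -0.48. None had an unadjusted p under 0.05, and 7 were lower without overlap (11.1% of all genes). CXCL2, a chemokine for neutrophils, stood at 14.7 and 19.4 CPM with TPA, at 0 in TPA+H89 1 and at 2.79 CPM in TPA+H89 2 (pair-fit adjusted p = 4.87e-07). IL11 stood at 67.9 and 178 CPM and then 31.9 and 77.4 CPM. LIF stood at 145 and 134 CPM and then 29.5 and 112 CPM, so that TPA+H89 1 was the low library and pair 2 differed by -0.25. Of 18 NF-kappaB targets 15 had a negative log2 fold change (median -0.89; -0.55 and -0.77), 1 had an unadjusted p under 0.05 (IRF1, lower, where 4.44% of all genes were) and 9 were lower without overlap (11.1% of all genes). Without TPA 2 their median was -0.26. NFKBIA, the inhibitor that NF-kappaB induces, stood at 199 and 555 CPM and then 99.3 and 214 CPM, and TNFAIP3, another brake on the pathway, at 27.1 and 25.7 CPM and then 8.02 and 13.5 CPM. PTGS2, the inducible cyclooxygenase, stood at 1246 and 459 CPM with TPA and at 552 and 389 CPM with both agents. TPA 1 was its high library, where TPA 2 was that of JUNB, and its pair differences were -1.18 and -0.24.

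MCL1, a short-lived survival protein, stood at 885 and 1433 CPM with TPA and at 611 and 783 CPM with both agents, without overlap and above the controls (201 to 320 CPM). SFT2D3, a membrane protein of vesicle transport, and CDKN2B, an inhibitor of the kinases CDK4 and CDK6, were among the 5 lower genes of lowest p. SFT2D3 stood at 10.6 and 18.8 CPM with TPA and at 4.37 and 6.43 CPM with both agents. CDKN2B stood at 30.1 and 40.9 CPM and then 18.8 and 12.3 CPM. Neither was called in the pair fit (adjusted p = 0.301 and 0.333). Of 13 genes of the kinases that H89 is known to inhibit and their subunits, none had an unadjusted p under 0.05, the median was -0.25 and 3 were lower without overlap (AKT1, PRKAR2A and ROCK2), against 11.1% of all genes. PRKAR1B, a regulatory subunit of protein kinase A, had the largest difference at -1.60 ± 0.76 (unadjusted p = 0.0546 in edgeR), with -0.06 in pair 1 and -2.05 in pair 2. RPS6KA4, which encodes MSK2, stood at 45.0, 132, 42.5 and 56.3 CPM in TPA 1, TPA 2, TPA+H89 1 and TPA+H89 2, so TPA 2 alone was high. RPS6KA5, which encodes MSK1, was at or below 2.45 CPM in all 4.

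**Figure D3:**
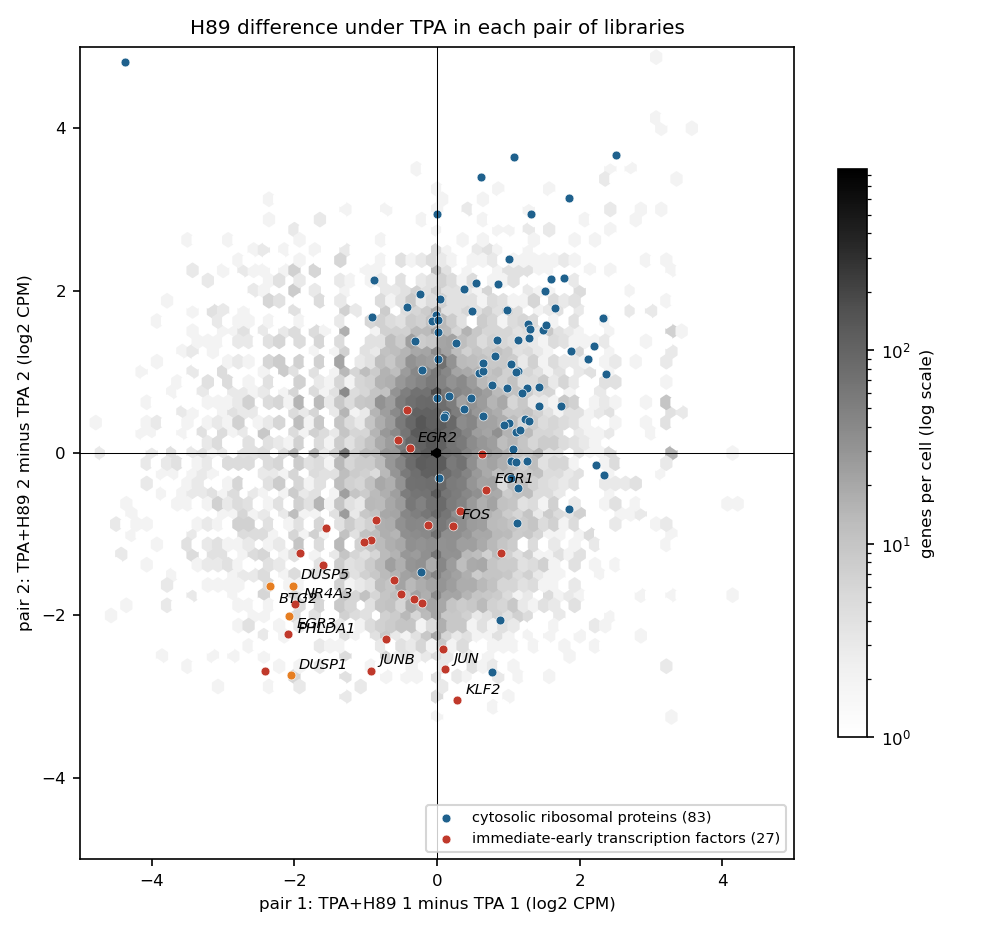
Log2 CPM difference, TPA+H89 minus TPA, of 18575 genes in pair 1 (horizontal) and pair 2 (vertical), with gray cells for the number of genes, red for the 27 immediate-early factors, blue for the 83 ribosomal proteins and orange for DUSP1, DUSP5, BTG2 and PHLDA1. DUSP1, DUSP5, BTG2, NR4A3, PHLDA1 and EGR3 lie between -1.63 and -2.74 in both pairs, and JUNB lies at -0.92 and -2.68. JUN and KLF2 are low in pair 2 only, and Pearson's r over all genes is 0.08.

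Over all genes the pairs had little in common. Pearson's r between the pair differences was 0.08 over 18575 genes and 0.21 over the 9212 with a mean of at least 10 CPM. These are descriptions over genes within 2 pairs of libraries.

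Several groups had medians near that of all genes. The 18 cytoskeletal targets of SRF and MRTF had a median of -0.32, with 0.07 in pair 1 and -0.80 in pair 2. The 19 genes of cholesterol and fatty acid synthesis had a median of 0.04 (-0.18 in pair 1 and 0.35 in pair 2). For the 20 fibroblast genes it was 0.04 (-0.11 and 0.27). For the 14 protein kinase C and other phorbol ester receptor genes it was -0.04 (-0.17 and 0.35). The pairs thus differed in sign in each of these lists. The 17 genes of the unfolded protein response had -0.21 (-0.04 and -0.27) and the 18 p53 targets -0.32 (-0.14 and -0.40). In the 20 genes of S phase and mitosis the median was 0.25, with 0.25 and 0.17 in the pairs. An unadjusted p under 0.05 was found for 2 (MCM7 and CCNB1, both higher, where 2.56% of all genes were). Higher without overlap were 7, against 10.6% of all genes. CCNB1, the mitotic cyclin, stood at 11.3 and 12.5 CPM with TPA and at 30.4 and 20.8 CPM with both agents. CDK1, its kinase, stood at 4.43 and 2.96 CPM and then 8.75 and 9.18 CPM.

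**Figure D4:**
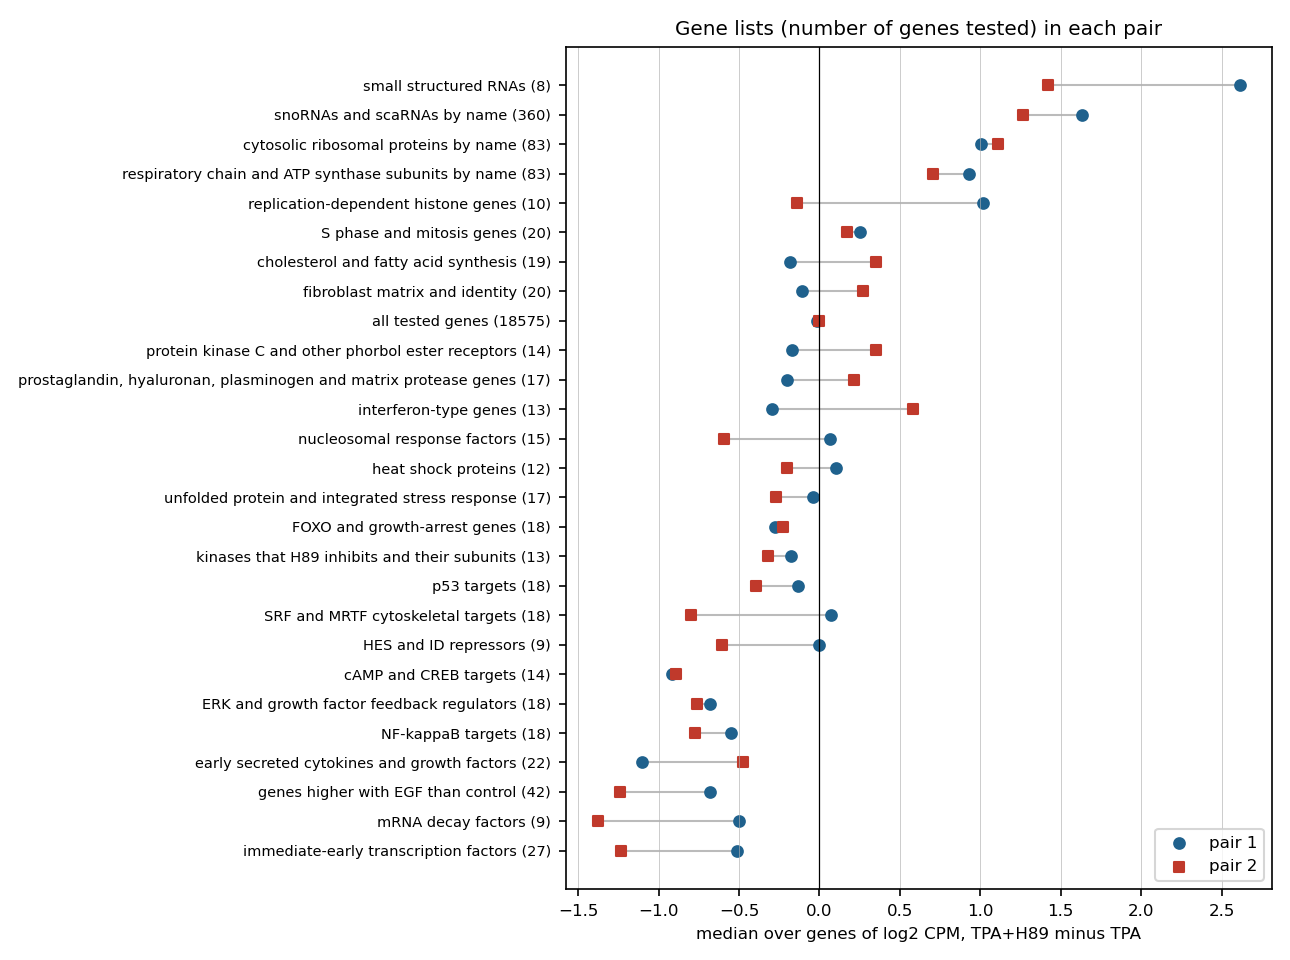
Median log2 CPM difference, TPA+H89 minus TPA, of each gene list in pair 1 (circles) and pair 2 (squares), ordered by the median fold change over all libraries, with the number of tested genes in brackets. Early response lists lie below 0 in both pairs, and the ribosomal, respiratory chain and small RNA lists lie above 0 in both.

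Higher with H89 were the messenger RNAs of the ribosome, grouped by their names after the values were seen. Of 83 cytosolic ribosomal proteins 78 had a positive log2 fold change, with a median of 1.09 and pair medians of 1.00 and 1.11. None passed the adjusted test, and 28 had an unadjusted p under 0.05, all higher, where 2.56% of all genes were. Higher without overlap were 40, against 10.6% of all genes. At least 2-fold higher in both pairs were 21 (2.71% of all genes met that rule), and 12 were called higher in the pair fit (0.834% of all genes). Their summed level was 25505 and 30692 CPM with TPA, 58108 and 52406 CPM with both agents, 22226 to 30296 CPM in controls and 28332 to 48951 CPM with H89 alone. It was 20671 to 41972 CPM with EGF, and 25919 and 48165 CPM with EGF and H89. Both TPA+H89 libraries exceeded every one of these, and the nearest were 48951 CPM in H89 3 and 48165 CPM in EGF+H89 2. Subunits of the respiratory chain and ATP synthase gave a median of 0.87 over 83 genes, with 0.93 and 0.71 in the pairs. Where 2.56% of all genes were higher and 4.44% lower at an unadjusted p under 0.05, 33 of these subunits were higher and 2 lower. Of these, NDUFA11, a subunit of complex I, stood at 56.4 and 30.5 CPM with TPA and at 174 and 113 CPM with both agents (log2 fold change 1.73 ± 0.39; pair-fit adjusted p = 0.0171). Median transcript length was 1170 nucleotides for the ribosomal proteins and 1260 for the respiratory chain genes, against 3176.5 over all tested genes. Transcripts of 1001 to 2000 nucleotides had median differences of 0.12 in pair 1 and -0.10 in pair 2. Those of up to 200, 201 to 500 and 501 to 1000 nucleotides had 1.10, 0.83 and 0.54 in pair 1. In pair 2 these shorter classes had 1.08, 0.08 and 0.00. With a correction for transcript length the pair fit kept 63 of its 132 higher calls, and with one for G and C content it kept 121. Called genes without a known transcript were not tested with either correction. The 63 included 5 of the 12 ribosomal proteins and 8 of the 9 called respiratory chain genes with a known transcript. RPS16 was among those lost with the length correction, at a log2 fold change of 0.77 (adjusted p = 0.772). NDUFA11 stayed called with it at 1.80 (adjusted p = 0.0256).

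Small structured RNAs made up most of the pair-fit calls in this direction, 80 of 132 being small nucleolar or Cajal body RNAs. The pair fit tested 247 of these RNAs, and it called 0.834% of all genes higher. The 360 members tested over all libraries had a median of 1.65, with 1.63 and 1.26 in the pairs, and without TPA+H89 1 it was -0.07. Higher without overlap were 33 of the 360 (9.17%), against 10.6% of all genes. An unadjusted p under 0.05 in edgeR was found for 14, all higher, where 2.56% of all genes were. Their summed level was 4961 CPM in TPA 1, 611 CPM in TPA 2, 36899 CPM in TPA+H89 1 and 2690 CPM in TPA+H89 2. TPA 2 was the lowest and TPA+H89 1 the highest of these 4, and controls spread from 3348 to 62468 CPM. RMRP, the RNA of a ribonuclease that cuts ribosomal RNA precursors, had pair differences of 2.70 and 2.61. The 8 small structured RNAs tested had a median of 2.52, and -0.31 without TPA+H89 1. With the length correction 43 of the 74 called small nucleolar and Cajal body RNAs with a known transcript stayed called, and RMRP did not, at 1.78 (adjusted p = 0.0557).

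Among genes of lowest p in the higher direction were several at the edge of detection. MCF2L, TLE6 and CHN2 had 0 counts in both TPA libraries and 2 and 12, 4 and 18, and 3 and 7 counts in TPA+H89 1 and TPA+H89 2. Against the 3 counts that 0 allows over the TPA group, they stood at least 8.58-fold, 13.5-fold and 6.13-fold higher with H89. Those bounds cover counting error only and take every count as independent. More genes had 2 counts than 1 in each of these libraries (261 against 124 in TPA 2, 1068 against 506 in TPA+H89 1). Counts may therefore not be independent, and the bounds may be too high. Controls had 0.217 to 0.373 CPM of CHN2, a chimaerin that binds phorbol ester, so the TPA libraries were the low ones. LINC01358, a long noncoding RNA, had 5 and 14 counts with TPA and 16 and 72 with both agents.

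To see whether H89 acted differently under TPA than in resting cells, its difference under TPA was set against H89 alone minus control. No gene passed edgeR's test of that difference (0 of 18575 at an adjusted p under 0.05; 887 at an unadjusted p under 0.05, with a lowest adjusted p of 0.9). With TPA 1 left out 126 genes passed. On the log2 scale the difference of differences was -2.43 ± 0.67 for DUSP1, -2.21 ± 0.64 for NR4A3, -1.79 ± 0.45 for DUSP5, -1.83 ± 0.85 for PHLDA1 and -1.28 ± 0.49 for BTG2. It was -0.50 ± 1.29 for EGR3 and -0.25 ± 0.98 for NR4A1, within 1 SE of 0. NR4A3 stood at 2.27 to 3.85 CPM with H89 alone, inside its range in controls. H89 alone is labelled 0 h and TPA+H89 1 h, and the labels do not say how long H89 was left on, so time in H89 may differ too.

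The same question was put between TPA and EGF, whose arms share no library. No gene passed (0 of 18575, with 554 at an unadjusted p under 0.05). DUSP1 stood at 495, 530 and 436 CPM with EGF and at 293 and 263 CPM with EGF and H89, so the groups did not overlap there either. DUSP5 stood at 75.7, 104 and 97.2 CPM and then 42.3 and 39.9 CPM, and ERRFI1 at 85.6, 89.4 and 87.3 CPM and then 56.0 and 47.8 CPM. The difference of differences was -1.75 ± 0.69 for DUSP1, -0.61 ± 0.46 for DUSP5 and -0.09 ± 0.38 for ERRFI1 on the log2 scale, each with an adjusted p of 1. Of 18 feedback regulators 4 were lower without overlap in the EGF arm, and 3 of these, DUSP1, DUSP5 and ERRFI1, were among the 9 of the TPA arm. Among immediate-early factors 6 were lower without overlap under EGF, and ATF3, IER5 and MYC were shared with the 10 under TPA. Over all genes 10.1% were lower without overlap in the EGF arm, and the shared genes were 18.3% of those in the TPA arm and 20% of those in the EGF arm. With EGF and H89, EGR1, EGR2 and KLF10 stood at 231 and 282, 243 and 240, and 447 and 461 CPM, against 68.7 to 268, 43.0 to 201 and 122 to 395 CPM with EGF alone.

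A list of 42 genes called higher with EGF than in controls, in a fit of those 6 libraries with a term for library type, uses none of the 4 libraries compared here. Of these 38 had a negative log2 fold change for H89 under TPA, with a median of -0.94 and pair medians of -0.68 and -1.24. In 38 of the 42 both TPA levels exceeded every control and H89 library. Lower without overlap were 15 of those (39.5%), against 41.8% of all tested genes raised in that way. Over the whole list 15 were lower without overlap and 2 higher, where 11.1% and 10.6% of all genes were. At an unadjusted p under 0.05 were 15, all lower (4.44% of all genes), and 5 were called lower in the pair fit (0.221% of all genes). Against genes of like G and C content their medians were -0.69 and -1.02, so the list lay below genes of the same composition in both pairs.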

How the data were processed

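Gene-level read counts, not normalized, were deposited by the authors for 28374 gene symbols in 16 samples, and every column was matched to a sample. The labels' protocols describe removal of ribosomal RNA and directional libraries run on 3 sequencing platforms, without saying which sample ran where. HOMER, hg19 and GRCh37 are listed in the submitters' processing notes. Aligner and annotation: not given in the sources used here.

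edgeR 4.0.16 in R 4.3.3 was used for the main test. filterByExpr at its minimum of 10 counts kept 18575 genes, TMM set the library scale, and 1 quasi-likelihood model with a term per group covered all 15 libraries. The Benjamini-Hochberg adjustment ran over every tested gene, with 0.05 as the threshold. Levels are CPM after TMM scaling, except marker sums, which were scaled by the total count. Pair differences are of log2 CPM with a prior count of 2. "Without overlap" means that every library of one group lies beyond every library of the other. Library type was read from the counts, since no label gives it. Control 1 and EGF 1 formed type 1, with more genes at 1 count than at 2 (1185 against 785 and 1121 against 701). The other libraries were split by their share of ribosomal RNA entries. The libraries of a pair deviated together (Pearson's r = 0.54 over 13228 genes between TPA 1 minus TPA 2 and TPA+H89 1 minus TPA+H89 2), and each pair is of 1 type, so a term for the pair cannot be told apart from a term for type. Transcript length and G and C content were those of the longest basic GENCODE v29 transcript of each symbol, known for 17426 genes. The corrections centred log2 CPM within 25 bins.

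Named genes were the 5 of lowest p in each direction, 20 preset genes (SIK1, one of them, was not tested) and up to 4 of lowest p per list. Others were chosen after their values were seen, among them PHLDA1, NUAK2, ARC, SPRY2, KLF10, BHLHE40 and TNFAIP3. The members, gene lists and tests were chosen with earlier results of these data known. Alternatives were DESeq2 1.42.0, its size factors, other filters, other covariates and leaving out each library. The scripts were tested on simulated data. Mitochondrial transcripts were not analysed here.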

Additional observations from a re-analysis of the deposited data

How the results depend on the processing

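With 2 libraries per group, 1 of them shallow and 1 of unusual base composition, the count of genes called for H89 under TPA depended on the fit. It was 0 over all libraries, 9 with DESeq2 (2 higher, 7 lower), 1 with the set of sample names as a replicate block, 167 with that block and only the 4 compared libraries, 85 with a transcript length correction and the block, and 232 with a GC correction and the block (199 higher, 33 lower). Both corrections were chosen after seeing the data, and without the block each gave 0. Leaving out 1 library gave between 0 and 719 for this comparison, 0 to 126 for the difference from H89 in untreated cells, and 0 to 0 for the difference from H89 under EGF. In the first 2, the highest count came without TPA 1, with the lone TPA 2 assumed to vary like the other groups. The cause was not tested. The other alternatives (size factors, no filter, at least 10 counts in 50% of libraries, only the compared groups, a term for library type, both control copies, RMRP and ribosomal RNA entries left out, a fold threshold) gave 0 calls in all 3 comparisons, as did the replicate block in the other 2.

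For the 56 named genes there were 997 alternative values, of which 62 passed the threshold and 17 changed sign. Leaving out 1 library moved the log2 fold change across 0 for 12 genes, between -3.42 and 0.093 for JUNB, -0.83 and 0.46 for BHLHE40, -2.39 and 0.015 for IER3, -1.41 and 0.14 for RPS6KA4, -9.12 and 0.78 for RPS6KA5, -3.33 and 0.63 for GDF15, -3.43 and 0.26 for ID3, -4.99 and 0.26 for ARC, -0.28 and 0.58 for EGR1, -0.40 and 0.14 for EGR2, -0.56 and 0.73 for KLF10, and -1.41 and 0.016 for PTGS2. The positive values of JUNB, IER3, GDF15, ID3, ARC, RPS6KA4 and RPS6KA5 came without TPA 2. RPS6KA4 was at 0.081 with the GC correction and 0.10 with that and the block, and EGR1 at -0.015 with the block over all libraries. DUSP1, DUSP5, BTG2, NR4A3, EGR3, PHLDA1, MYC and ATF3 kept a negative sign in every alternative run. Among other genes called in the pair fit, leaving out 1 library moved SOCS3 between -2.89 and -0.50 and NUAK2 between -3.95 and -1.51. The median of the 27 immediate-early factors ranged from -1.54 to -0.25, and that of the 83 ribosomal proteins from 0.81 to 1.11.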

Other observations

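Several genes not described above also differed in both pairs. NUAK2, a kinase of the AMPK family, stood at 26.3 and 46.8 CPM with TPA and at 2.37 and 12.3 CPM with TPA and H89, with pair differences of -3.45 and -1.93 (pair-fit adjusted p = 9.23e-05 in edgeR). Both inhibited values were below both TPA values, and controls lay between 3.82 and 8.94 CPM. ARC, an early gene best known from neurons, stood at 11.2 and 105 CPM with TPA and at 1.82 and 24.4 CPM with both agents, against 0.12 to 0.847 CPM in controls. ZFP36, which marks messages with AU-rich elements for decay, stood at 177 and 887 CPM and then 72.2 and 272 CPM, with pair differences of -1.29 and -1.70. ID3, a repressor of differentiation factors, stood at 89.8 and 776 CPM and then 40.3 and 174 CPM. TPA 2 was the high library for ARC, ZFP36 and ID3.

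Genes of sterol synthesis split. INSIG1, which holds sterol sensing back, stood at 459 and 644 CPM with TPA and at 234 and 398 CPM with both agents, and its groups did not overlap. FDPS, an enzyme of the mevalonate pathway, had pair differences of 1.29 and 0.98, in the other direction. FASN, the fatty acid synthase, had -0.66 and -1.44. No gene of this list had an unadjusted p under 0.05.

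Without a count in either TPA library but with counts in both TPA+H89 libraries were 34 tested genes, and 53 showed the reverse. TPA 2 had fewer genes with a count than TPA 1 although its total was larger.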
